A study of Homo sapiens with 16 samples.

Results

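The ZNF genes of chromosome 19 were examined for ChIP-Seq peaks from HEK293T cells, in libraries whose labels name Polk as the antibody. They were taken as the protein-coding genes of this chromosome, in the GENCODE 44 annotation placed on GRCh37, whose name is ZNF followed by a number only. The rule gave 240 genes of the 1480 protein-coding genes on chromosome 19 and of 20162 in all. No measured value entered it. The series holds 16 samples, of which 3 had a peak list, 1 each from wild-type, POLK-/- and DDX23-/- HEK293T cells, a line derived from human embryonic kidney. The labels give Polk as the antibody of these 3 libraries and no treatment, whereas the protocol describes beads against the FLAG tag and no tag is labelled in these cells. The libraries are labelled R_WT, R_POLK and R_DDX23. The paper reports ChIP-Seq of Flag-tagged Pol κ and does not describe these libraries. Peaks were also listed from POLK-/- cells, and whether the peaks of any list mark Pol κ was not tested. POLK encodes DNA polymerase κ, and DDX23 an RNA helicase of the spliceosome. A peak list does not show whether the targeted gene was lost, and whether a knockout line was 1 clone is not given in the sources used here. The library numbers inside the peak names were 4 for wild-type, 1 for POLK-/- and 2 for DDX23-/-. The wild-type and DDX23-/- lists were deposited for sample 1, and no group of the series had more than 2 samples. Which library these 2 lists came from is therefore unclear. With 1 list per genotype there was no replicate, and no test between genotypes was possible. Intervals cover the sampling of genes or the counting of fragments only.

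Most C2H2 zinc finger genes of human chromosome 19 stand in clusters that arose by gene duplication. Many encode a KRAB domain, which recruits TRIM28 and through it SETDB1, a methyltransferase that places H3K9me3, and the long row of zinc fingers that reads DNA is typically encoded by 1 exon at the 3' end of the gene. These 3' exons are known to carry H3K9me3 themselves, together with ATRX, while the promoters of the genes are mostly CpG rich and active. A start peak below is a peak whose summit lay at most 1 kb from the 5' end of the gene, and an inside peak is one whose summit lay in the gene more than 1 kb from that end.

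The sequences below lie upstream of starts with peaks that the results turn on. Each overlaps such a peak, but only the ZNF574 sequence holds the summits, which lie downstream of the other sequences. All were read from the GRCh37 plus strand, on which these genes lie. Each except that of ZNF584 ends at the base before the transcript start it was chosen for. ZNF543 was the only one of the 240 genes with a start peak in all 3 lists. ZNF302 had one in the wild-type and DDX23-/- lists, and ZNF317 had the smallest p among the genes with one in the DDX23-/- list alone. The ZNF574 and ZNF584 sequences precede starts inside those genes, where the strongest inside peaks lay. Capitals mark matches, on either strand, to the GC box GGGCGG, the ETS motif CCGGAAG, the CCAAT box CCAAT and the ZNF143 motif ACTACAANT.
ZNF543, chr19:57831640-57831839: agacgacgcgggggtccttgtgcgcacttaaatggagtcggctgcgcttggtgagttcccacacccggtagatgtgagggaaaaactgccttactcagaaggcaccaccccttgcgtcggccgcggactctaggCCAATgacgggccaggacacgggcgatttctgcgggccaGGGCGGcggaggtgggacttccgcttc
ZNF302, chr19:35168344-35168543: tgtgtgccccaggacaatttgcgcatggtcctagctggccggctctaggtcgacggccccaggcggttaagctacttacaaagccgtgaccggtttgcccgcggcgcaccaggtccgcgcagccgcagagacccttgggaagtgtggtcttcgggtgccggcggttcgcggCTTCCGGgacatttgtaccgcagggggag
ZNF317, chr19:9250873-9251072: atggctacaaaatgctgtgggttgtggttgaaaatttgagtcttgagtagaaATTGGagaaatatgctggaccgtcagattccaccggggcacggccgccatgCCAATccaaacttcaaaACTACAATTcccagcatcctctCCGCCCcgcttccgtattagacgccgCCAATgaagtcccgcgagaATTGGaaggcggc
ZNF574, inside the gene, chr19:42580118-42580317: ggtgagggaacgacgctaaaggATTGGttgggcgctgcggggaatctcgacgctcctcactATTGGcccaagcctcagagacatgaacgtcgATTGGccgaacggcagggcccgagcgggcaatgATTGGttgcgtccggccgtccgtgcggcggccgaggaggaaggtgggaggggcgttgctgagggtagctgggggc
ZNF584, inside the gene, chr19:58919893-58920015: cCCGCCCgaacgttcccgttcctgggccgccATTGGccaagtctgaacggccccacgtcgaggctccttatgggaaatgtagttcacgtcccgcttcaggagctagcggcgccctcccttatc
The ZNF574 and ZNF317 sequences each held 4 CCAAT boxes, and the ZNF543 and ZNF584 sequences 1 each. The ZNF302 sequence held none, with 1 ETS motif instead. ZNF317 was the one sequence of these with a ZNF143 motif. Their GC content was 63.5% for ZNF543, 65.5% for ZNF302, 51.5% for ZNF317, 65.5% for ZNF574 and 63.4% for ZNF584. The ZNF584 sequence was cut to 123 bases, since 77 transcribed bases of another transcript lie between it and the start at the inside peak.

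Few of the 240 genes had a start peak. Wild-type had 3 such genes (1.25%, exact binomial 95% interval 0.259 to 3.61), POLK-/- had 4 (1.67%, 0.456 to 4.21) and DDX23-/- had 31 (12.9%, 8.95 to 17.8). The other 1240 protein-coding genes of chromosome 19 had start peaks at 57 genes in wild-type (4.60%, 3.50 to 5.91), 104 in POLK-/- (8.39%, 6.90 to 10.1) and 245 in DDX23-/- (19.8%, 17.6 to 22.1). Over all protein-coding genes the shares were 5.56%, 9.91% and 24.5%. The share of the ZNF genes was the lowest of these in each list, with intervals apart from those of the other chromosome 19 genes in POLK-/- and overlapping at their edges in wild-type and DDX23-/-. Zinc finger genes named the same way on other chromosomes, 236 in number, gave 7.20% (4.25 to 11.3), 11.9% (8.03 to 16.7) and 33.5% (27.5 to 39.9), so that the low share did not extend to genes of the same name elsewhere. With genes that share a start peak left out of both groups, the shares of the ZNF genes and the other genes were 0.837% and 2.95% in wild-type, 1.67% and 4.78% in POLK-/-, and 9.91% and 12.3% in DDX23-/-. This setting removes only genes that have a peak, so the shares can only fall under it.

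**Figure D1:**
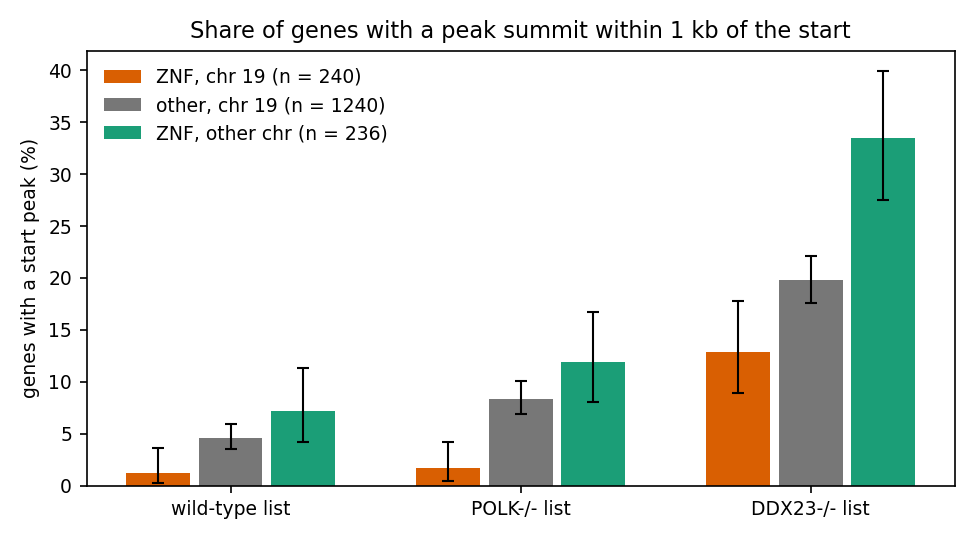
Share of genes (%, vertical axis) with a peak summit within 1 kb of the start, for each list and for ZNF genes of chromosome 19 (n = 240), other protein-coding genes of chromosome 19 (n = 1240) and ZNF genes of other chromosomes (n = 236). Bars are shares and lines exact 95% intervals; the chromosome 19 ZNF genes are lowest in each list, at 1.25%, 1.67% and 12.9%.

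The DDX23-/- list held 10.3 times as many of the chromosome 19 ZNF genes as the wild-type list, 31 against 3. The same ratio was 4.30 for the other genes of the chromosome, 4.65 for ZNF genes elsewhere and 4.40 for all protein-coding genes. The wild-type count of 3 leaves the first ratio with little precision. The lists also differ in length, at 1468, 2451 and 5945 peaks, with 63, 115 and 306 on chromosome 19. When only the 1468 peaks of smallest p were kept in each list, the ZNF genes with a start peak numbered 3 in wild-type, 1 in POLK-/- and 1 in DDX23-/-, while the other genes of the chromosome gave 57, 58 and 62 and the ZNF genes elsewhere 17, 15 and 16. The higher share in DDX23-/- was therefore not present among the strongest peaks. By rank of p, the 30 distinct start peaks of the ZNF genes stood at a median of 3562.5 among the 5945 DDX23-/- peaks, from 1186 for ZNF543 to 5884, and 7 of them lay in the upper part of the list when it is divided at its middle. The 195 distinct start peaks of the other chromosome 19 genes, taking the strongest of each gene, had a median rank of 2626, and 106 lay in that upper part. For ZNF genes elsewhere the median rank was 3281 (78 peaks), and for all protein-coding genes 3024 (4092 peaks).

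Every ZNF gene of the chromosome with a start peak in the wild-type or POLK-/- list also had one in the DDX23-/- list, as did 97.1% of wild-type and 95.8% of POLK-/- genes over all protein-coding genes. Of the 240 genes, 209 had none in any list, 25 had one in DDX23-/- alone (10.4%, against 11.0% of the other genes of the chromosome and 13.8% of all), 3 in POLK-/- and DDX23-/- (ZNF561, ZNF584 and ZNF787), 2 in wild-type and DDX23-/- (ZNF302 and ZNF77), and 1 in all 3 (ZNF543). The last 3 groups made 1.25%, 0.833% and 0.417% of the 240 genes, against 5.27%, 1.18% and 4.23% of all protein-coding genes. Genes with no start peak in any list made 87.1% and 74.96%. By these counts 1 of the 3 wild-type genes was in the POLK-/- list (33.3%), where it was 1 of 4 (25%). Counts of 3 and 4 leave these 2 shares with little precision, and whether they differ from those of other genes was not tested. Among the other genes of the chromosome, 42 of 57 wild-type genes (73.7%) were in the POLK-/- list, where they made 40.4% of 104. The same shares were 76.2% and 42.8% over all protein-coding genes, and 76.5% and 46.4% at ZNF genes elsewhere.

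ZNF543 encodes a KRAB zinc finger protein with 13 C2H2 motifs by pattern. Its start peak lay at chr19:57831672-57832089 in wild-type, in the untranslated part of the first exon, with the summit 30 bp downstream of the start. The summit stood on 13 fragments in wild-type (counting interval 6.92 to 22.2), 25 in POLK-/- (16.2 to 36.9) and 47 in DDX23-/- (34.5 to 62.5), and the deposited fold was 8.63, 6.47 and 13.4. The fold has 1 added to both the fragments and the background, so it falls below the plain ratio where the background is low. The plain ratio of fragments to background was 20.9, 9.20 and 22.3. It was thus lower in POLK-/-, and close in the other lists, where the fold differed 1.55 times. The background was 0.622, 2.72 and 2.11 in wild-type, POLK-/- and DDX23-/-. It carries no interval here, and whether the ratios differ was not tested.

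ZNF302 and ZNF77, both with a KRAB box, were seen in wild-type and DDX23-/-. ZNF302 had 12 fragments and a fold of 7.11 in wild-type, and 31 fragments and a fold of 7.15 in DDX23-/-, with ratios to background of 14.5 and 10.2. Its peak also lay within 1 kb of the start of SCGB2B2, on the other strand. ZNF77 had 7 fragments in wild-type (2.81 to 14.4) at a fold of 5.02, and 37 in DDX23-/- (26.1 to 51.0) at a fold of 6.14, and the ratios were 11.8 and 7.78. The wild-type peak of ZNF77, 435 bp upstream of the start, was the farthest from a start in that list. Among genes without a start peak there, the nearest summit was 4949 bp upstream of ZNF101, with 7 fragments and a fold of 5.02 as well, so no gene stood near the limit.

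ZNF561, ZNF584 and ZNF787 were seen in POLK-/- and DDX23-/-. ZNF561, a KRAB gene that starts beside the antisense RNA ZNF561-AS1, had 18 fragments (fold 6.80) in POLK-/- and 40 (fold 6.85) in DDX23-/-. For ZNF584, also with a KRAB box, the start peak rested on 26 fragments (fold 5.04) in POLK-/- and 44 (fold 9.51) in DDX23-/-. ZNF787, with 7 C2H2 motifs and no KRAB box found, had 17 fragments at a fold of 3.38 in POLK-/- and 28 at 5.81 in DDX23-/-. Its peak in POLK-/- was 343 bp upstream of the start and the farthest from a start in that list, and among genes without a start peak there the nearest summit was that of ZNF574, 7659 bp into the gene with 99 fragments.

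The strongest start peaks of the DDX23-/- list after ZNF543 and ZNF584 were those of ZNF317 and ZNF414. ZNF317 had 34 fragments at a fold of 8.48 and its summit 33 bp downstream of the start. ZNF414, which codes for 3 C2H2 motifs and no KRAB box, had 33 fragments at a fold of 8.73, 100 bp upstream. ZNF805, ZNF554 and ZNF628 followed among the genes seen in DDX23-/- alone, with 31, 32 and 33 fragments and folds of 7.87, 7.37 and 7.26. The 25 genes seen in DDX23-/- alone had a median of 27 fragments (18 to 43) and a median fold of 6.43 (3.71 to 8.73). The 6 genes seen in another list too had a median of 38.5 fragments (28 to 47) and a median fold of 6.998. The weakest fold, 3.71, was at ZNF571.

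The size and place of the start peaks were then set beside those of the neighbouring genes. The median fold at the chromosome 19 ZNF genes was 7.11 in wild-type, 5.75 in POLK-/- and 6.71 in DDX23-/- (order-statistic interval 5.79 to 7.28, range 3.71 to 13.4), against 7.65, 6.34 and 7.67 (7.21 to 8.36) at the other genes of chromosome 19. The highest fold at those other genes was 43.4, 71.2 and 74.99, and no ZNF start peak of the chromosome came near these. In DDX23-/- the summit of the ZNF start peaks lay at a median of 4 bp downstream of the start, with 14 summits upstream, 17 downstream and 16 of 31 (51.6%) within 100 bp. The share within 100 bp was 39.6% at the other genes of the chromosome, 46.8% at ZNF genes elsewhere and 47.5% over all protein-coding genes. The farthest, at ZNF333, was 534 bp downstream, and among genes without a start peak there the nearest summit was 5045 bp upstream of ZNF101, with 25 fragments at a fold of 6.51. The 31 peaks were 210 to 566 bp wide, with a median of 294 bp. In the canonical transcript, 9 summits fell in the untranslated part of the first exon and 3 in an intron, and 19 lay outside it.

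**Figure D2:**
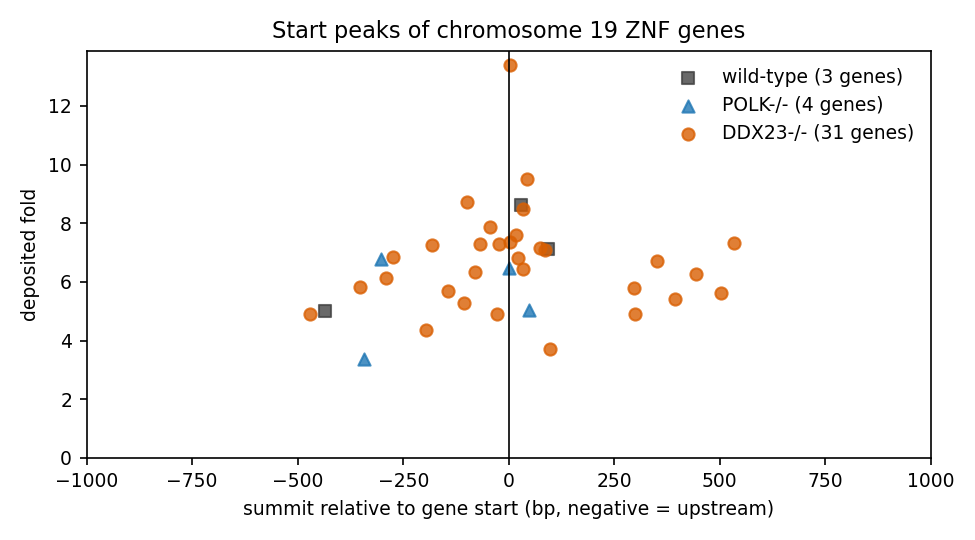
Position of the summit relative to the gene start (bp, horizontal axis, negative upstream) against the deposited fold (vertical axis) for the start peaks of the chromosome 19 ZNF genes, 3 in wild-type (squares), 4 in POLK-/- (triangles) and 31 in DDX23-/- (circles). The summits lie between 470 bp upstream and 534 bp downstream, and the fold runs from 3.38 to 13.4.

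Several start peaks served more than 1 gene. Of the 31 genes in DDX23-/-, 16 had the start of another annotated gene within 1 kb of the summit, and for 8 of them that gene was protein-coding, such as ELOF1 at ZNF627, DEDD2 at ZNF526, ADGRE3 at ZNF333 and ZNF585B at ZNF383. ZNF580 and ZNF581, 2 short zinc finger genes on the same strand, shared 1 peak of 43 fragments at a fold of 4.89, so the 31 genes rested on 30 peaks. For such pairs the peak cannot be given to either gene. A start on the other strand within 1 kb was found at 38.7% of the 31 genes and at 20.1% of the 209 without a start peak, and at 55.5% and 17.5% of the other chromosome 19 genes with and without one.

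Peaks inside the genes were rarer still and lay at further transcript starts. The wild-type list had inside peaks in 2 of the 240 genes (0.833%), POLK-/- in 3 (1.25%) and DDX23-/- in 10 (4.17%, 2.02 to 7.53). For the other chromosome 19 genes the shares were 0.968%, 1.61% and 5.56%, and over all protein-coding genes 1.48%, 2.39% and 6.34%. Per megabase of gene the ZNF genes held 0.261, 0.392 and 1.44 inside peaks, the other genes of the chromosome 0.373, 0.679 and 2.44, and all protein-coding genes 0.223, 0.361 and 0.978. The ZNF density thus lay between the other chromosome 19 genes and the genome as a whole. All 11 inside peaks of DDX23-/- lay at most 521 bp from the start of another annotated transcript of the same gene, with a median of 70 bp, and so did the 3 of POLK-/- (at most 105 bp) and the 2 of wild-type (at most 13 bp). Windows of 1 kb around such starts covered 8.08% of the length searched. At the other genes of the chromosome, 43 of 75 pairs of gene and inside peak in DDX23-/- (57.3%, 72 distinct peaks) lay within 1 kb of such a start. Such windows covered 16.6% of the length searched there. At ZNF genes elsewhere 10 of 14 pairs in DDX23-/- (71.4%) did so, with 7.22% of the length covered. Counting a peak at the start of any annotated transcript, 5 ZNF genes of the chromosome had one in wild-type (2.08%), 6 in POLK-/- (2.50%) and 39 in DDX23-/- (16.3%), against 5.00%, 8.87% and 22.7% of the other genes.

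The strongest peak at any of the 240 genes was inside ZNF574, which encodes 18 C2H2 motifs and no KRAB box by pattern. It lay about the start of the transcript whose upstream sequence is printed above, 7685 bp from the 5' end of the gene in wild-type, and had 42 fragments (30.3 to 56.8) in wild-type, 99 (80.5 to 121) in POLK-/- and 188 (162 to 217) in DDX23-/-. The fold was 25.6, 24.6 and 41.7, and the plain ratio to background 62.0, 36.4 and 62.0. As at ZNF543, only the fragments carry an interval, and whether the ratios differ was not tested. The summits of the 3 lists fell within 30 bp of that start. A further peak of 25 fragments followed in DDX23-/-, 8135 bp from the 5' end. An RNA gene on the other strand, ENSG00000289115, starts within 1 kb of the main peak. ZNF584 had its own inside peak in all 3 lists at a start 7222 bp into the gene, opposite the RNA gene ZNF584-DT, with 10, 34 and 76 fragments, a fold of 6.505, 6.508 and 12.8 and ratios of 14.5, 8.34 and 16.7. The ratio of DDX23-/- to wild-type in this measure was 1.00 at ZNF574, 1.15 at ZNF584 and 1.07 at ZNF543, but 0.707 at ZNF302 and 0.661 at ZNF77. Over the start peaks of all protein-coding genes, the median ratio to background was 15.2 in wild-type, 10.6 in POLK-/- and 10.9 in DDX23-/-. These medians cover the 1122, 1999 and 4935 genes called in each list. They are thus not over the same genes, and do not show whether shared peaks were generally lower in POLK-/-.

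Inside peaks of ZNF444, ZNF546 and ZNF765 came next. ZNF444, with 4 C2H2 motifs, had 36 fragments at a fold of 10.0 in DDX23-/- alone, 70 bp from an inner start. ZNF546, a KRAB gene with 22 motifs, had 22 fragments (fold 4.87) in POLK-/- and 32 (fold 5.53) in DDX23-/-. ZNF765 had 24 fragments at a fold of 6.87 in DDX23-/-, 9 bp from an inner start. The inside peaks of ZNF565 and ZNF540 were the start peaks of their neighbours ZNF146 and ZNF571.

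**Figure D3:**
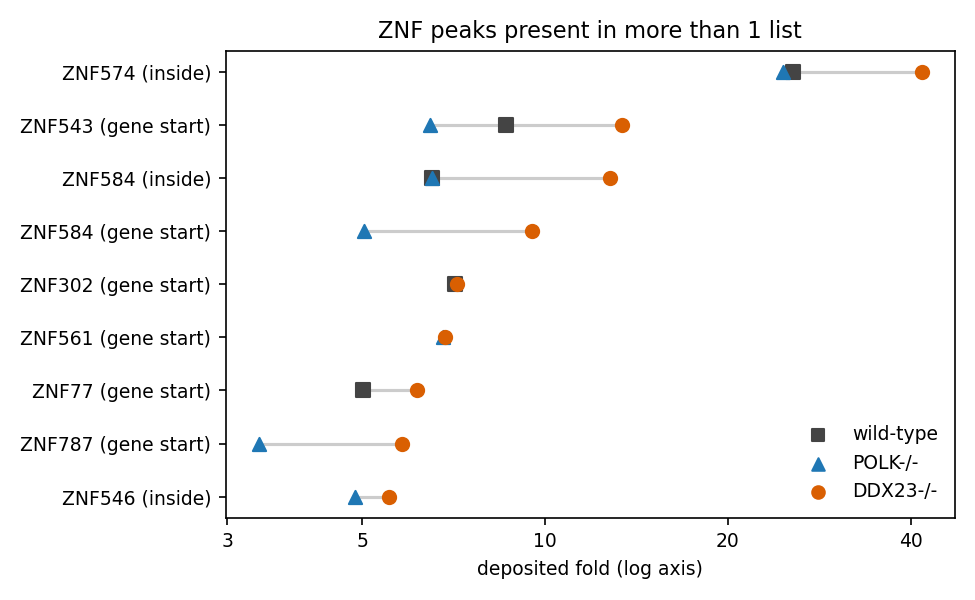
Deposited fold (horizontal log axis) of the peaks at chromosome 19 ZNF genes found in more than 1 list, with wild-type as squares, POLK-/- as triangles and DDX23-/- as circles, each row a gene start or a place inside the gene. The inside peak of ZNF574 is highest in each list, at 25.6, 24.6 and 41.7, and the other folds lie between 3.38 and 13.4.

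No peak lay in the 3' zinc finger exon of any of these genes. Of the 237 genes with a coding canonical transcript, 233 held C2H2 motifs in the last coding exon, and these exons carried 2968 of the 2998 motifs found (99.0%), with a median of 12 per exon. ZNF274 is not among the 233: its translated sequence held an inner stop, and no motif was found in it. The last coding exons of the 237 genes had a median length of 3300 bp and together covered 0.870 Mb. In each list 0 of the 237 exons held a summit, which allows a share of up to 1.54%, and 0 of the 233 with motifs were touched by a peak at all. The nearest summit to such an exon was that of ZNF574, 2425 bp away in wild-type, 2451 bp in POLK-/- and 1975 bp in DDX23-/-. Peaks in the last coding exon were rare at the other genes of the chromosome too, with 0% in wild-type, 0.081% in POLK-/- and 0.324% in DDX23-/- of 1234 exons. At 2.70 peaks per megabase, the density of those exons in DDX23-/-, few peaks would be counted in 0.870 Mb, so a like density was not detectable as different here.

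Repeated sequence can hide peaks, because reads that fit several places are hard to assign. Stretches of 50 bases that occur again on chromosome 19 made up a median of 1.18% of the 1 kb windows on either side of the ZNF starts (highest 32.6%), 0.564% at the other starts, and a median of 0% of the coding part of the last exons (upper quartile 6.18%, highest 69.4%). More than 50% of the sequence was repeated in 4 of 236 such exons and in 0 of 240 ZNF start windows. Windows of the 31 genes with a start peak in DDX23-/- had a median of 1.08%, and those of the 209 without 1.18%. Copies on other chromosomes were not counted, and the part of mapping in the counts was not tested.

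The depth of the lists differed as well. The weakest peak of a list stood on 6 fragments in wild-type, 10 in POLK-/- and 14 in DDX23-/-, and the lowest background on 0.573, 1.25 and 1.94. If the 28 ZNF genes with a start peak in DDX23-/- and none in wild-type had the same ratio to background in wild-type, at its lowest common background, their summits would stand on a median of 5.57 fragments, and 11 of the 28 would reach 6. The reckoning is a low one, since it put only 1 of the 3 genes that did have a wild-type start peak at 6 or more. For the 27 genes absent from POLK-/- the same reckoning gave a median of 12.6 fragments, with 18 at 10 or more. For the 192 other chromosome 19 genes absent from wild-type it gave 6.07 fragments, with 100 at 6 or more. At this lowest background the expected counts for the 28 went no higher than 7.76, and a higher background would give higher counts. With 1 list per genotype, depth and genotype cannot be told apart for the genes absent from wild-type or from POLK-/-.

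The genes were next divided by the KRAB box. A KRAB A-box was found by pattern in 199 of the 240 genes, of which 3, 3 and 22 (11.1%, 7.06 to 16.3) had a start peak in wild-type, POLK-/- and DDX23-/-. Of the 38 genes searched and found without it, 0, 1 and 9 (23.7%, 11.4 to 40.2) had one. The other 3, ZNF442, ZNF714 and ZNF43, have no coding canonical transcript to search, and none of them had a start peak. The DDX23-/- intervals overlap. The genes without the box held a median of 10 C2H2 motifs and those with it 13.

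The count of start peaks varied over the gene clusters, taken as runs of ZNF genes at most 1 Mb apart. The cluster from ZNF628 to ZNF446 near the end of the long arm, with 57 genes, had 1, 3 and 9 start peaks in wild-type, POLK-/- and DDX23-/- (15.8% in DDX23-/-). The run from ZNF146 to ZNF573 had 5 of 24 genes in DDX23-/- (20.8%) and that from ZNF557 to ZNF846 had 4 of 15 (26.7%). By contrast the run from ZNF175 to ZNF331 had 1 of 39 (2.56%), that from ZNF101 to ZNF254 had 2 of 37 (5.41%), and that from ZNF575 to ZNF296 had 1 of 24 (4.17%). None of these 3 runs had a start peak of a ZNF gene in wild-type or POLK-/-. Other protein-coding genes inside the ZNF575 to ZNF296 run had one at 6 of 32 starts in DDX23-/- (18.8%), and inside the ZNF175 to ZNF331 run at 0 of 15. Inside the ZNF628 to ZNF446 run the other genes had fewer, 3 of 53 (5.66%), and inside the ZNF557 to ZNF846 run 11 of 60 (18.3%). Over all runs together, the other protein-coding genes that start between the ZNF genes had a start peak at 1 of 202 in wild-type (0.495%, 0.0125 to 2.73), 5 in POLK-/- (2.48%, 0.808 to 5.68) and 27 in DDX23-/- (13.4%, 8.997 to 18.8). The intervals of the 240 ZNF genes overlap these broadly in each list. Their share was the higher one in wild-type and the lower one in POLK-/- and DDX23-/-. No difference from these direct neighbours was thus resolved. The neighbours include zinc finger genes whose names fall outside the rule, such as ZNF585B. This background was added after the lists had been examined.

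Promoters of the chromosome 19 ZNF genes, taken from 250 bases before to 50 after the start, were lower in GC than those around them, with a median of 58.2% against 62.2% at the other genes of the chromosome and 60.3% at all genes. Genes with a start peak in DDX23-/- had a median GC of 62.7% and those without 58.0%. Within promoters of 50 to 60% GC, 9 of 120 ZNF genes of the chromosome (7.50%, 3.49 to 13.8) had a start peak in DDX23-/-, against 18.5% (14.6 to 23.0) of the other chromosome genes and 27.2% of ZNF genes elsewhere. From 60 to 70% GC the shares were 18 of 89 (20.2%, 12.4 to 30.1), 23.9% (20.2 to 27.8) and 42.1%. Against the other genes of the chromosome the intervals were apart in the former bin and overlapped in the latter. Against ZNF genes elsewhere (17.9 to 38.2 and 30.9 to 54.0) they were apart in both. In the outer bins the ZNF share was not lower than that of the other genes of the chromosome. Under 50% GC it was 2 of 23 (8.70%, 1.07 to 28.0) against 6.34%. From 70% GC it was 2 of 8 (25%, 3.19 to 65.1) against 20.9%, with wide intervals. It was lower there than at ZNF genes elsewhere, which had 21.2% (8.98 to 38.9) and 39.1% (25.1 to 54.6), with overlapping intervals. These bins were chosen after the lists had been examined.

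**Figure D4:**
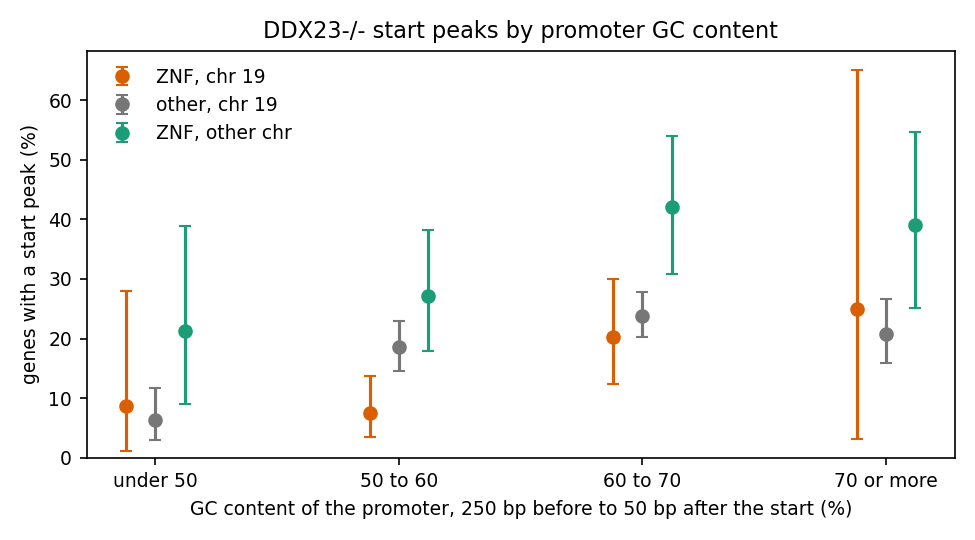
Share of genes (%, vertical axis) with a start peak in the DDX23-/- list by GC content of the promoter (%, horizontal axis, 4 bins) for ZNF genes of chromosome 19, other genes of chromosome 19 and ZNF genes of other chromosomes, with exact 95% intervals. Between 50 and 60% GC the points are 7.50%, 18.5% and 27.2%, and between 60 and 70% they are 20.2%, 23.9% and 42.1%.

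Motifs were counted in the same windows on both strands. The ETS motif CCGGAAG, bound by GABPA and its relatives, was held by 40.4% of the chromosome 19 ZNF promoters, 28.4% of those of ZNF genes elsewhere, 13.5% of the other chromosome 19 promoters and 11.8% of all promoters. It was in 9 of the 31 ZNF promoters with a start peak in DDX23-/- (29.0%) and in 88 of the 209 without (42.1%). The count of 9 leaves the former share with little precision. At ZNF genes elsewhere the ETS motif was in 32.9% with and 26.1% without, and over all genes in 21.3% with and 8.72% without. The GC box GGGCGG, a site of the Sp factors, was in 74.2% of the ZNF promoters with and 60.3% of those without, against 52.1% of all promoters. This contrast was not particular to the ZNF genes. Over all genes the GC box was in 70.2% with and 46.3% without, and at the other chromosome 19 genes in 71.4% and 56.1%. The NRF1 motif GCGCATGC (4.17% of the ZNF promoters, 3.76% of all), the CRE TGACGTCA (2.92% and 2.29%), the YY1 motif AAGATGG (5.83% and 5.62%), TCTCGCGA (1.25% and 1.45%) and the B box GGTTCGA (0.833% and 0.977%) were infrequent. After the printed sequences had been read, the CCAAT box, bound by NF-Y, and the ZNF143 motif ACTACAANT were added. CCAAT was in 52.5% of the ZNF promoters and 35.8% of all, at 51.6% with and 52.6% without a start peak. The ZNF143 motif was in 5 of the 31 with a start peak (16.1%), namely ZNF180, ZNF317, ZNF554, ZNF628 and ZNF8, and in 2 of the 209 without (0.957%). It was noticed in ZNF317, which was printed for its peak and is among the 5, so these counts are not independent of the choice. At ZNF genes elsewhere it was in 5.06% with and 1.27% without. Over all genes it was in 3.08% with and 1.29% without, and in 1.73% of all promoters. A match is a string of letters and does not show that the factor was bound.

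Genes whose products act with KRAB zinc finger proteins were looked at beside them, as 22 genes listed for this pathway. Start peaks were found at 2 in wild-type (9.09%, 1.12 to 29.2), 3 in POLK-/- (13.6%, 2.91 to 34.9) and 10 in DDX23-/- (45.5%, 24.4 to 67.8). The shares over all protein-coding genes were 5.56%, 9.91% and 24.5%. HDAC1, a histone deacetylase, had 31, 76 and 136 fragments at a fold of 13.4, 9.49 and 25.6, and CBX3, which encodes a reader of H3K9me3, had 20, 29 and 72 fragments at a fold of 11.5, 11.2 and 12.1. TRIM28, the partner of the KRAB domain and itself on chromosome 19, had 21 fragments (fold 5.29) in POLK-/- and 30 (fold 5.86) in DDX23-/-. DNMT3A, TASOR, DAXX, PPHLN1, CBX5, MPHOSPH8 and MORC2 had a start peak in DDX23-/- alone, with 20 to 35 fragments. SETDB1, ATF7IP, CBX1, SUV39H1, CHD3, CHD4, HDAC2, SMARCAD1, DNMT1, DNMT3B, UHRF1 and ATRX had none in any list.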

How the data were processed

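ChIP-Seq peak lists of 3 libraries were used (1 per genotype). The authors deposited for each peak its place, a fold, which is a ratio of summit fragments to background after adding 1 to each, the −log10 of p and q, and a score of 10 times the −log10 q. Per the labels, Bowtie2, MACS2, bedtools and deepTools were used with hg19; the threshold, control and pooling are not given in the sources used here. Of 1468, 2451 and 5945 peaks, 1461, 2449 and 5941 lay on names and within lengths of the GRCh37 sequence used with GENCODE 44.

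Whole fragments and background at each summit were solved from the deposited fold and −log10 p with the Poisson formulas of MACS2. They reproduced both values within a relative tolerance of 0.001 for 1460, 2385 and 5852 peaks, with fragments scaled by 1, 0.736 and 0.660. Total reads are unknown. Shares have exact (Clopper-Pearson) 95% intervals (scipy 1.17.1), and no test was run. Scripts were tested on simulated peaks.

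Members and lists were chosen with earlier results of these data known. The named genes are those with start peaks in all lists, the 5 of smallest p per list and in DDX23-/- alone, the 5 strongest inside peaks, those next to the 1 kb limit, genes that share their peaks and the pathway genes. Others named were chosen after their values were seen. Alternatives were a q of 1e-05 or less, equal peak numbers, overlap by 1 bp, 5 kb, other transcript starts, names with a letter, and shared peaks left out.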

Additional observations from a re-analysis of the deposited data

How the results depend on the processing

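No paired analysis was possible because each genotype had 1 list and no result comes from a test. Of 71 alternative values for 20 results, 63 moved by less than their interval and 8 moved by more. With the same number of peaks per list, the share of the 240 genes with a start peak was 0.417% in POLK-/- and 0.417% in DDX23-/-, the median fold in DDX23-/- was 13.4 (1 gene), the share with an inside peak in DDX23-/- was 0.833%, and the difference of DDX23-/- from wild-type turned from 11.7 to -0.833 percentage points. This setting keeps fewer peaks of the longer lists by construction. With genes sharing a start peak left out, the other genes of chromosome 19 gave 2.95%, 4.78% and 12.3% in wild-type, POLK-/- and DDX23-/-. A stricter q, placing peaks by any base, a limit of 5 kb, other transcript starts and names with a letter left the shares of the 240 genes within their intervals, from 11.3% to 16.3% for start peaks in DDX23-/-. The depth of the wild-type list limits what its absences show, and no replicate was at hand.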
